A study of Homo sapiens with 4 samples.

Results

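The nuclear-encoded subunits of the respiratory chain were compared between human embryonic stem cells (hESCs) in the naïve and in the primed state. Members were the protein-coding nuclear genes of the Ensembl annotation whose symbol begins with NDUFA, NDUFB, NDUFC, NDUFS or NDUFV and a digit, with UQCR, with COX4 to COX8 or with ATP5, together with SDHA, SDHB, SDHC and SDHD. This rule found 89 of the 62218 genes with a counted transcript, of which 39 belong to complex I, 4 to complex II, 9 to complex III, 17 to complex IV and 20 to complex V. The rule uses symbols only, so it also takes up the ATP synthase inhibitor ATP5IF1, the paralog UQCRHL and the readthrough genes NDUFC2-KCTD14 and ATP5MF-PTCD1. It places NDUFA4 in complex I by its name, although this protein is known as a subunit of complex IV.

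All cells were of a single established line, H1, so the results hold for this line only. The primed cells grew on Matrigel in mTeSR1 under normal oxygen and were taken at 60 to 70% confluency. The naïve cells were derived from the H1 primed cells, grew in FINE medium on growth factor reduced Matrigel in a low-oxygen incubator, and were taken at 50% confluency. Medium, oxygen, matrix and state differ together and cannot be told apart. Complementary DNA was read on a Nanopore PromethION as 2 libraries per state, and nothing states whether replicates came from separate cultures, so p-values measure only the spread between these libraries.

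The respiratory chain is a series of protein complexes in the inner mitochondrial membrane. Complexes I and II pass electrons from NADH and succinate to ubiquinone, complex III passes them to cytochrome c and complex IV to oxygen, while complex V, the ATP synthase, uses the resulting proton gradient. All complexes but complex II combine subunits made in the cytosol from nuclear genes with subunits encoded by mitochondrial DNA. Naïve hESCs have been reported to respire more than primed hESCs, but respiration was not measured here.

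Several members are near copies of each other, and an alignment was counted at each place it aligned, so the sequences decide which counts stand alone. UQCRH and UQCRHL encode the hinge protein of complex III, from chromosome 1, positions 46303698 to 46316776 on the plus strand and 15807169 to 15809348 on the minus strand of GRCh38. Their coding sequences of 276 bases are 98.6% identical, with G158A, G167A, G231A and G233A between UQCRH and UQCRHL, counted from the first base of the start codon. They are shown with the 4 differing bases in capitals.
UQCRH: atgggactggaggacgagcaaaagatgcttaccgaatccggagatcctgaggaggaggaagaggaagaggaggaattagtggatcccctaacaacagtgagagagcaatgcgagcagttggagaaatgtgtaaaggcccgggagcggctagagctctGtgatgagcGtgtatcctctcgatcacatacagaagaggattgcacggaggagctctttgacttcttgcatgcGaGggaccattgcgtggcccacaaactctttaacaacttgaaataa
UQCRHL: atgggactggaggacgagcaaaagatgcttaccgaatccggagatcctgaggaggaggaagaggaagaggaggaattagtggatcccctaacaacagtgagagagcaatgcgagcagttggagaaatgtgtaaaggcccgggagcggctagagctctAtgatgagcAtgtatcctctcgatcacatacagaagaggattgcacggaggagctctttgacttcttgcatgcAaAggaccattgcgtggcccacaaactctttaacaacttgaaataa

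ATP5MC1, ATP5MC2 and ATP5MC3 are separate genes for the c subunit, the proton-carrying ring of complex V. They lie on chromosome 17 (48892765 to 48895871, plus strand), chromosome 12 (53665202 to 53677398, minus strand) and chromosome 2 (175176258 to 175181710, minus strand) of GRCh38. The last 228 coding bases, for 75 codons and the stop codon, translate alike in all 3 genes, while 43 of the bases in ATP5MC1 and 43 in ATP5MC2 differ from ATP5MC3. Capitals mark these differences. Over this stretch ATP5MC1 and ATP5MC2 are each 81.1% identical to ATP5MC3, and they differ from each other at 25 bases.
ATP5MC1: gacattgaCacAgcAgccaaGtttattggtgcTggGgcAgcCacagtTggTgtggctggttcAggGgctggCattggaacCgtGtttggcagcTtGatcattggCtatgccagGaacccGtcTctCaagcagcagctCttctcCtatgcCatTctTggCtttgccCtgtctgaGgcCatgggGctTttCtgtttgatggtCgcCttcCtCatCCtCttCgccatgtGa
ATP5MC2: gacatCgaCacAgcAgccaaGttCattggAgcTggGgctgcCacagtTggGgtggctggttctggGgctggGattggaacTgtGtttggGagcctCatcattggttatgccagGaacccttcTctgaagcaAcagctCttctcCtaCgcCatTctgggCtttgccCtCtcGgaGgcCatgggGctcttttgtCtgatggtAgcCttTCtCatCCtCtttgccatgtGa
ATP5MC3: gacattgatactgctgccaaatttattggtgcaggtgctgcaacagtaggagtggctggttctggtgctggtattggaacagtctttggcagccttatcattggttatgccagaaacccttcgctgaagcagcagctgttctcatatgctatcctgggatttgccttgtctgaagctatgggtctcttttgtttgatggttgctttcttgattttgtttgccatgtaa

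Gene-level counts came to 29618037 and 30978794 for the naïve state and 23542380 and 24673428 for the primed state. A count of 0 therefore allows up to 3 counts, or 0.0968 to 0.127 CPM (counts set to a common library total), for counting error only. All 9 naïve markers found were lower and all 8 primed markers higher in primed cells. The naïve marker KLF17 had a log2 fold change of primed over naïve of -0.41. When scaled by library size alone it was at 0.23 and not called. Of 12 trophoblast markers, 11 were higher in naïve cells, where their summed level was 2710 and 3040 CPM against 9.40 and 9.29 in primed cells. CGA, the hormone subunit of trophoblast, had 35747 and 47550 counts in naïve cells and 0 and 1 in primed cells, and 3 trophoblast markers, HSD3B1, XAGE2 and S100P, were at 0 in both primed libraries. All 5 amnion markers were also lower in primed cells, with summed levels of 59.3 and 61.5 CPM against 6.35 and 4.76. Of these, GABRP was at -0.75, or at -0.11 and not called with library size alone. The part of cells with trophoblast or amnion markers in the results that follow was not tested.

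Most subunit genes were lower in primed than in naïve cells. Of 89 members, 85 passed the filter of at least 10 counts in at least 2 libraries, and 69 of these were called lower and 1 higher in primed cells (edgeR, quasi-likelihood fit, adjusted p under 0.05). This is 81.2% of the members tested called lower, beside 32.6% of all 27632 genes tested. Of all genes, 70.0% were called in either direction and 37.4% were called higher. Both primed libraries lay below both naïve libraries in 77 of the 85 members, against 39.6% of all genes. The median log2 fold change of primed over naïve was -0.97 for the members and 0.08 for all genes, and 40 members fell by more than 1 on the log2 scale. In bulk RNA, fewer cells that express a gene and less of its RNA per cell cannot be told apart.

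The direction of small changes depended on the scaling. The trimmed mean of M-values (TMM) factors were 0.779 and 0.824 for naïve and 1.25 and 1.24 for primed libraries. With library size alone, the median of all genes moved from 0.08 to 0.72 and that of the members from -0.97 to -0.33, and 44 members were called lower and 15 higher. Of all 27632 genes, 4511 were then called lower and 15524 higher. With total file counts the members' numbers were 45 lower and 13 higher, while DESeq2's size factors gave 71 lower and 0 higher. The distance between the members' median and that of all genes was -1.05, and 80 of 85 members lay below the median of all genes. Dropping the factors shifts all genes nearly alike, so both values stay the same with library size by construction. The members without the 3 repeated genes held 1.17% and 1.12% of gene-level counts in naïve cells. In primed cells they held 0.886% and 0.954%. Such a share is again scaling by library size alone, so it is not a separate check.

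**Figure D1:**
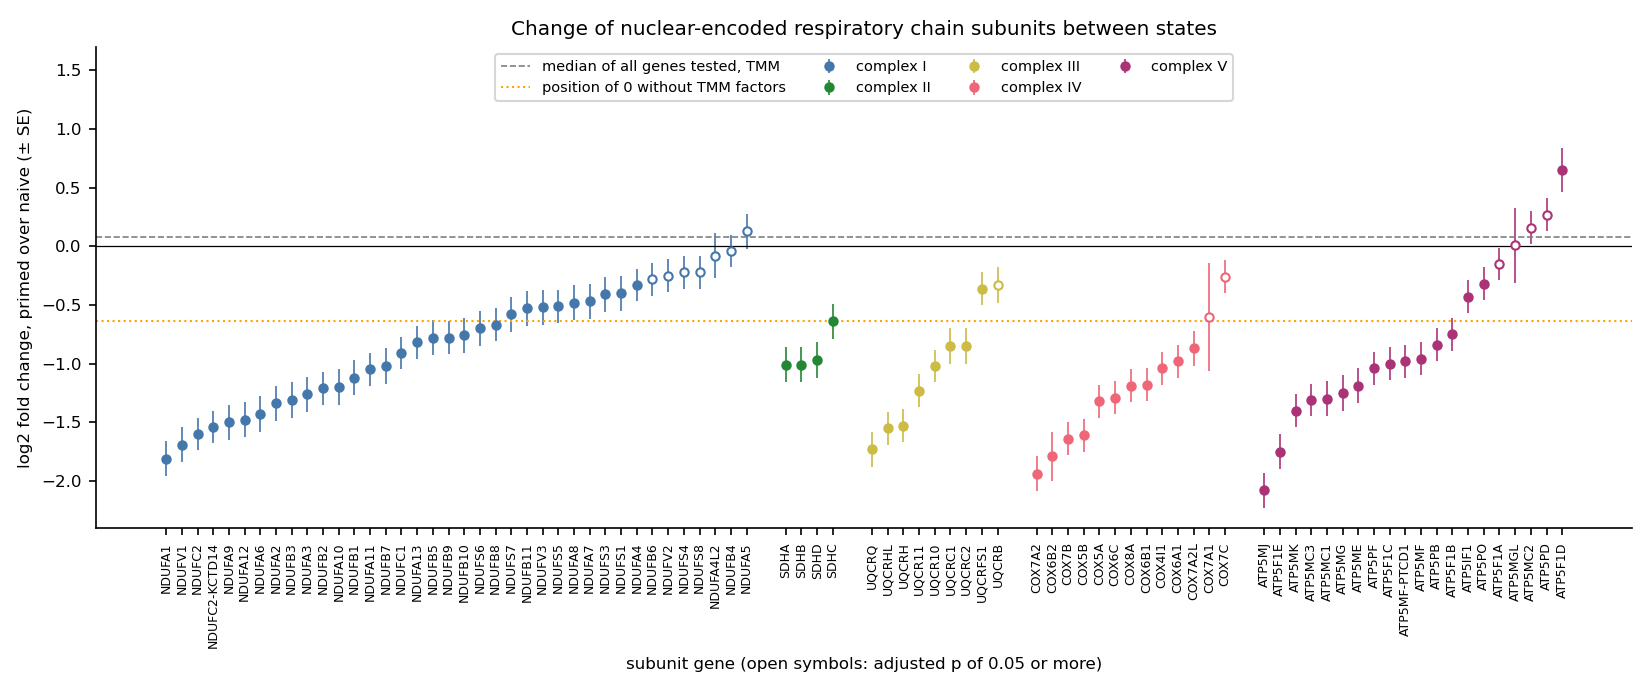
The vertical axis shows the log2 fold change of primed over naïve, with its SE from the edgeR fit, for tested members on the horizontal axis, ordered by complex, without 1 member that is not reported here. Filled points had an adjusted p under 0.05, the dashed line marks the median of all genes, 0.08, and the dotted line marks where 0 would lie without TMM factors. Most points lie below 0, and part of them lie between 0 and the dotted line.

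Complex I oxidizes NADH and holds 7 nuclear core subunits that carry out catalysis, along with supernumerary subunits around them. Of its 39 members, 31 were lower in primed cells, 8 were not called and none was higher, with a median of -0.76 and a lowest value of -1.81. With library size alone, 15 were lower and 9 higher. The 7 core genes had a median of -0.40, with 4 called lower, and the other 32 members had a median of -0.80, with 27 called lower. The difference between these groups was not tested.

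The member of complex I that fell most was NDUFA1, a small membrane subunit on chromosome X from 119871832 to 119876662. After TMM scaling its levels were 246 and 227 CPM in naïve cells and 58.2 and 76.7 CPM in primed cells. The states did not overlap, and the log2 fold change was -1.81 ± 0.15 (SE), with an edgeR adjusted p of 3.68e-14. NDUFV1, the flavoprotein subunit that takes electrons from NADH, was the core gene with the largest fall. Its levels were 87.6 and 72.9 CPM in naïve cells and 26.3 and 23.2 CPM in primed cells, with a log2 fold change of -1.69 ± 0.15 and an adjusted p of 3.36e-13. Other core genes were closer to 0, with -0.58 for NDUFS7, which was called lower, and -0.22 for NDUFS8 and -0.25 for NDUFV2, which were not called. NDUFS7 was at 0.07 and not called with library size alone, and there NDUFS8, at 0.42, and NDUFV2, at 0.39, were called higher. The call of NDUFS7 was also lost without primed replicate 2 (-0.34, adjusted p = 0.115), and NDUFS8 was called lower without naïve replicate 2 (-0.39, adjusted p = 0.0499).

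NDUFC2, a small subunit of the membrane arm, had 274 and 237 CPM in naïve cells and 82.5 and 85.4 CPM in primed cells. The readthrough gene NDUFC2-KCTD14 covers NDUFC2. Its counts were 6329, 6057, 2545 and 2733 across naïve replicates 1 and 2 and primed replicates 1 and 2, where NDUFC2 had 6324, 6041, 2430 and 2622, and its log2 fold change of -1.54 repeats the -1.60 of NDUFC2. NDUFA4 had 11449 and 11578 counts in naïve cells and 10583 and 12122 in primed cells, with a log2 fold change of -0.33 ± 0.14 and an adjusted p of 0.0322. This call was lost in several alternatives, and the sign turned to 0.31 with library size alone. NDUFA4L2, its paralog known to be induced under hypoxia, had 166, 169, 192 and 200 counts across naïve replicates 1 and 2 and primed replicates 1 and 2. Its log2 fold change was -0.08 ± 0.19, with an adjusted p of 0.707, and it turned to 0.56 with library size alone. The counted span of NDUFA4L2, 57234903 to 57237104 on chromosome 12, overlaps SHMT2. ENST00000556732, an isoform of NDUFA4L2 from 57235080 to 57237092, had 2, 1, 23 and 26 counts in the same order. Most counted alignments therefore lay outside this inner span, and how many belong to NDUFA4L2 was not tested. As a share of both genes, which needs no scaling, NDUFA4L2 had 1.43% and 1.44% in naïve cells and 1.78% and 1.62% in primed cells. The 95% Wilson intervals of all 4 libraries overlapped. This share uses the counts over the span that overlaps SHMT2, so it does not tell whether NDUFA4L2 itself changed.

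Complex II is succinate dehydrogenase, which is also an enzyme of the citric acid cycle, and all 4 of its genes are nuclear. All 4 were lower in primed cells, with log2 fold changes of -1.01 for SDHA, -1.01 for SDHB, -0.64 for SDHC and -0.97 for SDHD and SEs of 0.15. SDHA, the flavoprotein, had 38.9 and 36.1 CPM in naïve cells and 19.8 and 17.5 CPM in primed cells. SDHB, the iron-sulfur subunit, had 60.9 and 61.8 CPM against 31.2 and 29.8 CPM. SDHC and SDHD anchor the enzyme in the membrane. SDHC had 59.4 and 57.2 CPM in naïve cells and 40.4 and 34.4 CPM in primed cells, and SDHD had 87.1 and 69.5 CPM against 43.4 and 36.2 CPM. The naïve libraries lay above the primed libraries for each gene. The call of SDHC, with an adjusted p of 0.000175, was lost with library size alone (log2 fold change 0.00) and without primed replicate 2 (-0.37, adjusted p = 0.0841). Without TMM factors, the other 3 genes were still called lower.

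Complex III, the cytochrome bc1 complex, had 8 of 9 members lower in primed cells and UQCRB not called, with a median of -1.02 and a range from -1.73 to -0.33. Scaling by library size alone left 5 lower and 0 higher. UQCRB, at -0.33 with an adjusted p of 0.0531, was called lower with the replicate number as a block (-0.36, adjusted p = 0.0142), and also without naïve replicate 2 (-0.40) or primed replicate 1 (-0.47). Both primed libraries lay below both naïve libraries in all 9. UQCRQ, a small ubiquinone-binding subunit, had 222 and 191 CPM in naïve cells and 57.4 and 67.4 CPM in primed cells, with a log2 fold change of -1.73 ± 0.15 and an adjusted p of 8.97e-14. UQCRH was the most abundant member of the complex per length of its representative transcript, at 1180 CPM per kilobase in naïve and 407 in primed cells. Its counts were 15528 and 15053 in naïve cells and 6162 and 6988 in primed cells, and its log2 fold change was -1.53 ± 0.14. The counts of UQCRHL were 94.0 to 95.4% of these in every library, and its log2 fold change was -1.55, so the 2 genes cannot be told apart and count as a single measurement. The core subunits UQCRC1 and UQCRC2 both had a log2 fold change of -0.85, and the iron-sulfur protein UQCRFS1 had -0.36. None of these 3 was called with library size alone, at -0.21, -0.21 and 0.28. The call of UQCRFS1 was also lost without naïve replicate 1 (-0.35), primed replicate 1 (-0.28) or primed replicate 2 (-0.11). It was lost as well with a filter of at least 50 counts (-0.26) and with counts summed over transcripts (-0.37).

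Complex IV is cytochrome c oxidase, and several of its nuclear subunits exist as a widely expressed form and a form of heart, muscle, lung or testis. Of 17 members, 13 were tested, 11 were lower in primed cells, and COX7A1 and COX7C were not called. Library size alone left 10 lower and 1 higher. The median was -1.19, the lowest of the complexes, with a range from -1.94 to -0.26, and all 13 had both primed libraries below both naïve ones. COX7A2, the widely expressed subunit VIIa, fell most, from 667 and 531 CPM in naïve cells to 138 and 175 CPM in primed cells, with a log2 fold change of -1.94 ± 0.15 and an adjusted p of 5.43e-15. COX7B, another small subunit, had 292 and 283 CPM in naïve cells and 85.2 and 98.7 CPM in primed cells, with a log2 fold change of -1.64 ± 0.14 and an adjusted p of 1.74e-13. COX7C, the next most abundant gene of the complex per length in naïve cells (1010 CPM per kilobase, beside 1300 for COX7A2), had 643 and 632 CPM in naïve and 490 and 571 CPM in primed cells and a log2 fold change of -0.26 ± 0.14 (adjusted p = 0.0891). COX7C was called higher with library size alone (0.37, adjusted p = 0.00667) and lower with DESeq2 (-0.31, adjusted p = 0.0354).

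Among the paired forms, the widely expressed ones carried nearly all counts in both states. COX4I1 had 433 and 369 CPM in naïve cells and 193 and 196 CPM in primed cells (log2 fold change -1.04 ± 0.14, adjusted p = 1.89e-08). COX4I2, known as the form of lung and of hypoxia, had 3, 4, 5 and 8 counts across naïve replicates 1 and 2 and primed replicates 1 and 2, below the filter. COX6A1 fell from 412 and 367 CPM to 183 and 212 CPM, with a log2 fold change of -0.98, and the heart and muscle form COX6A2 had 2, 0, 19 and 8 counts in the same order. COX8A fell from 316 and 299 CPM to 126 and 144 CPM, with a log2 fold change of -1.19, and COX8C had 1, 2, 5 and 9 counts. COX7B2, the testis form of COX7B, had 6, 10, 8 and 6 counts. COX6A2, COX8C, COX7B2 and COX4I2 did not pass the filter. With no filter, COX6A2 was called higher in primed cells (adjusted p = 0.000222), on 2 and 0 counts against 19 and 8, and the other 3 were not called.

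COX6B1 fell from 392 and 346 CPM in naïve cells to 149 and 176 CPM in primed cells, with a log2 fold change of -1.18 ± 0.14. COX6B2, the testis form of this subunit, was measurable in both states, with 218 and 195 counts in naïve cells and 78 and 70 counts in primed cells. Its log2 fold change was -1.79 ± 0.21, with an adjusted p of 7.9e-10. COX6B2 made up 2.35% and 2.16% of the counts of both genes in naïve cells and 1.75% and 1.28% in primed cells. COX7A1, the heart and muscle form, had 15, 12, 9 and 13 counts and an adjusted p of 0.241. COX7A2L, which is known to join complexes III and IV, had 115 and 95.3 CPM in naïve cells and 59.3 and 55.7 CPM in primed cells, with a log2 fold change of -0.87 ± 0.15, and this call was lost with library size alone (-0.23, adjusted p = 0.134). Its share of the COX7A genes was 14.6% and 15.2% in naïve cells and 30.1% and 24.1% in primed cells.

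**Figure D2:**
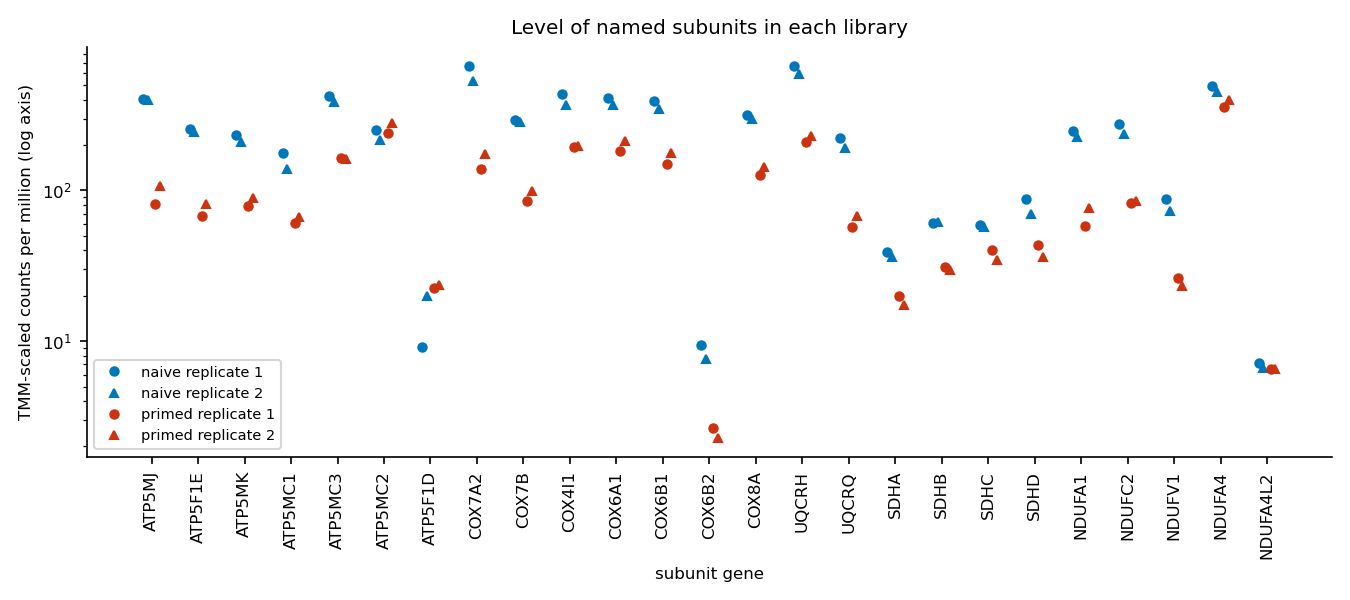
TMM-scaled CPM on a logarithmic vertical axis are plotted for 25 named subunit genes, with blue for naïve and red for primed libraries and a circle or triangle for replicates 1 and 2. The red symbols lie below the blue ones for most genes, lie above them for ATP5F1D, and overlap with them for ATP5MC2.

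Complex V had 15 of 20 members lower and 1 higher in primed cells, with a median of -0.97 and the widest range, from -2.08 to 0.65. When scaled by library size alone, 11 were lower and 5 higher. The 5 small membrane subunits ATP5ME, ATP5MF, ATP5MG, ATP5MJ and ATP5MK were all lower, with a median of -1.25. ATP5MJ, a small proteolipid of the membrane part, fell most of all 85 members. It had 402 and 396 CPM in naïve cells and 81.3 and 107 CPM in primed cells, a log2 fold change of -2.08 ± 0.15 and an adjusted p of 4.23e-16. ATP5MK, which takes part in the dimer of the enzyme, fell from 232 and 209 CPM to 79.1 and 88.9 CPM, with a log2 fold change of -1.40 ± 0.14. ATP5MF had a log2 fold change of -0.96, and the readthrough gene ATP5MF-PTCD1, with 115 to 117% of its counts, had -0.98.

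In the F1 head, which makes ATP, the log2 fold changes ranged from -1.75 to 0.65, with the upper end from ATP5F1D alone. ATP5F1E, the epsilon subunit, had 257 and 243 CPM in naïve cells and 67.6 and 80.8 CPM in primed cells, with a log2 fold change of -1.75 ± 0.15 and an adjusted p of 4.06e-14. The catalytic beta subunit gene ATP5F1B had a log2 fold change of -0.75, and the gamma subunit gene ATP5F1C fell from 171 and 164 CPM to 89.8 and 77.8 CPM, both called lower. The alpha subunit gene ATP5F1A had -0.15 ± 0.14 and was not called. ATP5F1B was not called (-0.11) and ATP5F1A was called higher (0.49) with library size alone. ATP5F1D, the delta subunit, was the only member called higher, with 212 and 507 counts in naïve cells and 662 and 719 counts in primed cells (log2 fold change 0.65 ± 0.19, adjusted p = 0.00267). The naïve libraries differed by more than the primed ones did. Without naïve replicate 1 the log2 fold change was 0.15 with an adjusted p of 0.522, and with DESeq2 it was 0.62 with an adjusted p of 0.312. Among the 4 genes of the peripheral stalk, which holds the head still, ATP5PB, ATP5PF and ATP5PO were lower and ATP5PD, at 0.27 ± 0.14, was not called. ATP5PO, with library size alone, turned from -0.32 to called higher (0.32, adjusted p = 0.0278), ATP5PD was called higher (0.91, adjusted p = 2.57e-06), ATP5PB was not called (-0.19) and ATP5PF stayed lower. The call of ATP5PO was also lost without naïve replicate 1 (-0.29), primed replicate 1 (-0.18) or primed replicate 2 (-0.13). It was lost as well with no count filter (-0.33) and with a filter of at least 50 counts (-0.22). ATP5PD was called higher without primed replicate 1 (0.53) and with at least 50 counts (0.37).

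The genes of the c subunit, whose sequences are shown above, moved apart. ATP5MC1 fell from 176 and 139 CPM in naïve cells to 61.0 and 66.4 CPM in primed cells, with a log2 fold change of -1.30 ± 0.15 and an adjusted p of 2.46e-10. ATP5MC3 fell from 426 and 384 CPM to 165 and 162 CPM, with a log2 fold change of -1.31 ± 0.14 and an adjusted p of 6.19e-11. ATP5MC2 had 250 and 216 CPM in naïve cells and 239 and 282 CPM in primed cells, with a log2 fold change of 0.16 ± 0.14 and an adjusted p of 0.32. The states overlapped for ATP5MC2 and not for the other 2 genes. With library size alone ATP5MC2 was called higher, at 0.80, and ATP5MC1 and ATP5MC3 were called lower. Within a library, the share of a gene among the c subunit genes needs no scaling. ATP5MC2 held 29.3% (95% Wilson interval 28.7 to 30.0) and 29.2% (28.6 to 29.9) of these counts in naïve cells and 51.4% (50.5 to 52.2) and 55.2% (54.4 to 56.0) in primed cells. The mean share was 29.2% ± 0.0707 (SD, n = 2) against 53.3% ± 2.69, and the exact permutation test, two-sided, gave p = 0.333, the smallest that 2 libraries against 2 allow. ATP5MC3 had 50.0% and 52.0% in naïve cells and 35.5% and 31.8% in primed cells. These are shares of counts, not set to transcript length.

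The subunits encoded by mitochondrial DNA, which join the nuclear ones in complexes I, III, IV and V, did not follow the nuclear ones. Of these 13 genes, 8 were called higher in primed cells, 1 lower and 4 not called, with a median log2 fold change of 0.77. Among all genes, 37.4% were called higher and 32.6% lower. MT-CYB, the cytochrome b of complex III, had 2731 and 2945 counts in naïve cells and 12521 and 12556 counts in primed cells (log2 fold change 1.84 ± 0.14). MT-CO2, a catalytic subunit of complex IV, had 10825 and 12776 counts against 29886 and 32302. MT-CO1 and MT-CO3, also of complex IV, had smaller log2 fold changes, at 0.16 ± 0.14 (not called) and 0.39 ± 0.14 (called higher). MT-ND4, of complex I, was the gene called lower, at -0.53 ± 0.15, and with library size alone it was at 0.10 and not called, while the other 12 were called higher. Strand was ignored in the counts, and MT-ND4 overlaps MT-ND4L and MT-ATP6 overlaps MT-ATP8 and MT-CO3.

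The mitochondrially encoded part of each complex, as a share of the counts of its mitochondrial and nuclear genes without the 3 repeated genes, was larger in both primed libraries than in both naïve ones. For complex III it was 6.86% ± 0.417 (SD, n = 2) in naïve and 37.5% ± 0.778 in primed cells, and for complex V 8.22% ± 2.06 and 22.5% ± 0.849. For complex IV it was 26.8% ± 1.41 in naïve and 54.1% ± 1.41 in primed cells. For complex I it was 27.2% and 35.7% in naïve and 47.4% and 45.6% in primed cells. The exact permutation test, two-sided, gave p = 0.333 for each of the 4 complexes, the smallest that the design allows. These shares need no scaling between libraries, and they compare counts, not molecules, since an alignment counted for each gene it overlapped.

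**Figure D3:**
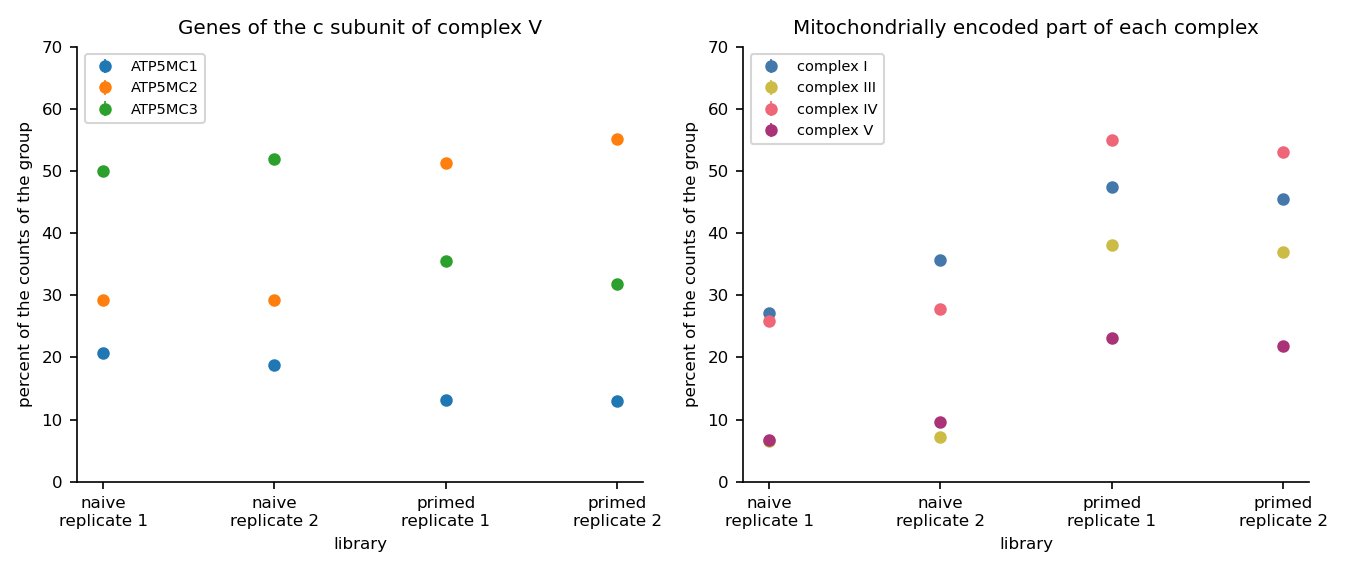
The vertical axes show the percent of counts within each library (horizontal axis) with 95% Wilson intervals, which are smaller than most points. On the left are the 3 c subunit genes of complex V, with ATP5MC2 at 29.3% and 29.2% in naïve and 51.4% and 55.2% in primed libraries, and on the right is the mitochondrially encoded part of complexes I, III, IV and V, larger in both primed libraries.

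Change also moved with transcript length and abundance over all protein-coding genes, and the members are mostly short and abundant. Among genes that are not members, the median log2 fold change was -0.83 for representative transcripts up to 500 bases and 0.27 for those over 5000 bases. With a mean count of at least 1000 and up to 1000 bases, the median was -1.02 for 45 members and -0.82 for 364 other genes, with 84.4% and 76.1% called lower. From 500 to 750 bases, the class with most members, the medians were -0.86 for 28 members and -0.87 for 164 other genes. With the same mean count and over 1000 bases, the median was -0.97 for 29 members and -0.50 for 1648 other genes, with 89.7% and 59.6% called lower. The part of length and abundance in the members' change was not tested.

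**Figure D4:**
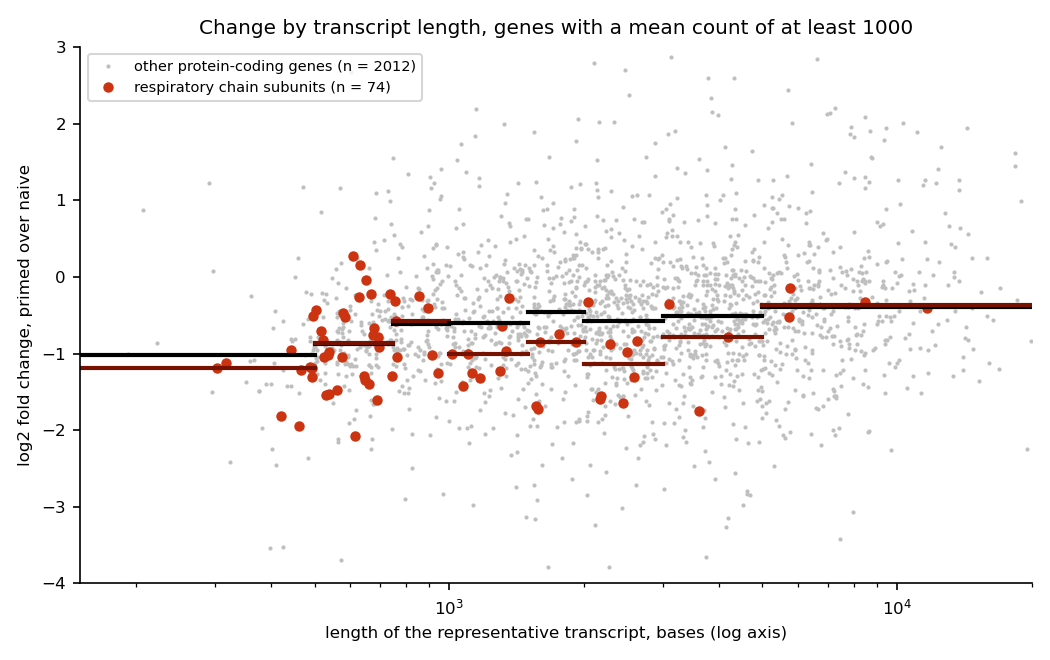
The log2 fold change of primed over naïve (vertical axis) is plotted against the length of the representative transcript in bases (horizontal axis, logarithmic) for protein-coding genes whose mean count reached 1000, with 74 members in red and 2012 other genes in grey. Horizontal bars are medians in length classes, dark red for members and black for the others; in the class from 500 to 750 bases they are -0.86 and -0.87, and from 2000 to 3000 bases -1.14 and -0.58.

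Pseudogene copies of some subunit genes had nearly the counts of their parents. Of 188 pseudogenes named after 49 members, 9 had at least 50% of the count of the parent gene. COX6A1P2, on chromosome 6 from 37044860 to 37045189, had 9539, 9382, 5407 and 6550 counts across naïve replicates 1 and 2 and primed replicates 1 and 2, where COX6A1 had 9507, 9381, 5385 and 6507. The 330 bases of COX6A1P2 are 98.8% identical to the transcript of COX6A1. NDUFA4P1 held 98.2% of the count of NDUFA4, UQCRFS1P1 98.1% of UQCRFS1 and SDHDP6 96.4% of SDHD. NDUFV2P1 held 90.5% of NDUFV2 and ATP5PDP4 81.3% of ATP5PD. Lower shares were those of SDHAP2 (56.8%) and SDHAP1 (54.3%) of SDHA and of ATP5MFP2 (54.5%) of ATP5MF. Where a copy held nearly all of the count of its parent, the counts of parent and copy cannot be told apart. For the lower shares, how much of the count is common to parent and copy was not tested. Of the members, 35 had a counted span that overlapped no other gene, and of the 33 of these that were tested, 26 were lower and 1 higher in primed cells, with a median of -0.85.

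Isoform usage of the subunit genes did not pass the thresholds. In the edgeR test of isoforms against the other isoforms of their gene, 801 isoforms of 79 member genes were tested, and 0 had an adjusted p under 0.05 with a change of isoform fraction (dIF) beyond 0.1, beside 0.556% of all 159577 isoforms. Of the 801, 9 had an unadjusted p under 0.05, and the largest dIF was 0.0752. Without the dIF threshold 4 isoforms were called, beside 4.27% of all isoforms. They made up small fractions of their genes. ENST00000423797 of COX7A2L, from 42365670 to 42425088 on chromosome 2, had 3, 8, 99 and 113 counts across naïve replicates 1 and 2 and primed replicates 1 and 2. It rose from 0.0356% to 0.986% of the gene. The 2 isoforms of NDUFA4L2 were ENST00000556732, which rose from 0.372% to 4.59%, and ENST00000554688, from 0.598% to 6.62%. Their counts in the same order were 2, 1, 23 and 26 for the former and 2, 1, 21 and 23 for the latter. These fractions depend on the other NDUFA4L2 transcripts, of which the one with most counts overlaps SHMT2. The isoform of NDUFA3 was ENST00000482960, which rose from 0.0221% to 0.140%. Transcripts were counted over whole spans, so isoforms of a gene share alignments.

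Of 4 chain genes that the symbols miss, 3 were lower in primed cells: NDUFAB1, the acyl carrier protein of complex I, at -1.81 ± 0.14, CYC1, the cytochrome c1 of complex III, at -0.79 ± 0.15, and CYCS, cytochrome c, at -0.57 ± 0.14. With library size alone, NDUFAB1 remained lower at -1.17, CYC1 was at -0.15 and CYCS at 0.07, and neither of these was called. Assembly factors, which build the complexes and stay out of them, were mixed beside the 70.0% of all genes called. For complex I, 4 of 16 were higher and 6 lower, with COA1 at 0.87, NDUFAF2 at -0.12 and not called, and ECSIT at -1.71. ECSIT had 524 and 2288 counts in naïve and 568 and 466 in primed cells, and without naïve replicate 2 its log2 fold change was -0.46 (adjusted p = 0.0324), while DESeq2 did not call it (-1.74, adjusted p = 0.0852). For complex IV, 2 of 23 were higher and 11 lower, with CMC2 at -1.09, COX16 at -0.18 and not called, PET100 at -0.90 and COX17 at -0.57. For complex II, 0 of 4 were higher and 2 lower, with SDHAF3 at 0.33 and not called and SDHAF4 at -0.38. For complex III, 2 of 6 were higher and 2 lower, with UQCC2 at -0.52 and UQCC1 at 0.36. For complex V, 1 of 4 was higher and 3 were lower, with FMC1 at -0.77 and ATPAF2 at -1.21. When scaled by library size alone, COX17 (0.07), PET100 (-0.26), SDHAF4 (0.26), UQCC2 (0.12) and FMC1 (-0.13) were not called, and NDUFAF2 (0.51) and COX16 (0.46) were called higher. The calls of COX17 and UQCC2 were also lost without primed replicate 1 (-0.29 and -0.26), that of SDHAF4 without naïve replicate 1, primed replicate 1 or primed replicate 2 (-0.39, -0.23 and -0.20) and that of UQCC1 without naïve replicate 2 or primed replicate 2 (0.12 and 0.39). The medians were -0.03, -0.23, 0.17, -0.32 and -0.98 for complexes I to V, and these directions depend on the scaling. With library size alone, 10 were higher and 2 lower for complex I, 2 and 0 for complex II, 4 and 0 for complex III, 11 and 3 for complex IV and 1 and 2 for complex V.

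Of 15 regulators of mitochondrial gene expression, 3 were higher and 6 lower in primed cells, and with library size alone 6 were higher and 1 lower. Among all genes, 37.4% were called higher and 32.6% lower. With library size alone, 15524 of all 27632 genes were called higher and 4511 lower. ESRRA, a nuclear receptor that acts on these genes, was lower at -0.88 ± 0.14, and its counted span overlaps TRMT112. GABPA, an ETS factor, was listed at -1.10, but its counted span overlaps ATP5PF, and its mean count of 3840 compares with 354 for its canonical transcript. LRPPRC, which stabilizes mitochondrial messengers, was lower at -0.48 ± 0.15, and YY1, at -0.19 ± 0.16, was not called. ESRRA, at -0.24, and LRPPRC, at 0.15, were not called with library size alone, and YY1 was called higher there, at 0.44. The call of LRPPRC was also lost without primed replicate 1 (-0.26) or primed replicate 2 (-0.37), and YY1 was called lower without naïve replicate 1 (-0.47). NRF1, whose motif is described with the promoters, was higher at 0.52 ± 0.16 (adjusted p = 0.00485) and at 1.16 with library size alone, and its call was lost without naïve replicate 1 (0.45, adjusted p = 0.0595). Since the states also differ in oxygen, 18 targets of hypoxia-inducible factor were examined. Of these, 6 were higher and 9 lower in primed cells, beside 37.4% and 32.6% of all genes, or 9 higher and 6 lower with library size alone. LDHA, lactate dehydrogenase, was at 0.03 ± 0.14 and not called, or called higher at 0.67 with library size alone, and BNIP3, a mitophagy receptor, was lower at -1.08 ± 0.14. SLC2A1, the glucose transporter GLUT1, was lower at -0.79 ± 0.15, and was not called with library size alone (-0.16). EGLN3, a prolyl hydroxylase, was at -2.16, and its span overlaps SPTSSA.

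Promoters are shown because several members carry short motifs of factors known for respiratory genes. RefSeq promoters (GRCh38.p14, from 250 bases before to 50 after the start) were matched for 70 of 89 members and for 15270 other protein-coding genes. On both strands, GCGCANGC, the core of the NRF1 motif, was found in 40.0% of member promoters and 16.7% of the others. CCGGAAG, an ETS motif, was found in 28.6% and 14.3%, AAGATGGC, a YY1 motif, in 15.7% and 3.91%, and ACGTG, the core of the hypoxia response element, in 25.7% and 23.8%. At least 1 of the first 3 motifs stood in 61.4% of member promoters and 30.1% of the others. Members with the NRF1 motif had a median log2 fold change of -1.01 (n = 27 tested) and those without -0.97 (n = 40). For the ETS motif the medians were -1.11 (n = 20) and -0.87 (n = 47), for YY1 -0.85 (n = 11) and -1.02 (n = 56), and for the hypoxia motif -1.04 (n = 18) and -1.01 (n = 49). These are descriptions of letters and were not tested.

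For each of the first 3 motifs, the promoter of the member with the largest fall among those that hold it is printed, 5′ to 3′ on the strand of the gene, with the motif in capitals. ATP5MJ (chr14:103921480-103921779, minus strand) holds the NRF1 motif, NDUFA1 (chrX:119871582-119871881, plus strand) the ETS motif and NDUFA9 (chr12:4648864-4649163, plus strand) the YY1 motif. NDUFA9, a supernumerary subunit of complex I, had a log2 fold change of -1.50 ± 0.15.
ATP5MJ promoter: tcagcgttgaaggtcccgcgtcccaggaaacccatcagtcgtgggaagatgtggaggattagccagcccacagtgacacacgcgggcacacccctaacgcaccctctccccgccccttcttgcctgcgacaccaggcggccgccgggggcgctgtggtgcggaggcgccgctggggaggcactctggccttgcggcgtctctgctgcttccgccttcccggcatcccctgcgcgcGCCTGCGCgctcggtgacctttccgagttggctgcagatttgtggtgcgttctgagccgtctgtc
NDUFA1 promoter: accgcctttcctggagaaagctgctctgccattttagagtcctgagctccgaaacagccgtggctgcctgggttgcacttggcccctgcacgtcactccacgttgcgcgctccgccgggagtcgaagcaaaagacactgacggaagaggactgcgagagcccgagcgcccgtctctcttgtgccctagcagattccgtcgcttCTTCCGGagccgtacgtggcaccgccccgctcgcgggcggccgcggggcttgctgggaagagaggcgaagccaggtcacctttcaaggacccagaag
NDUFA9 promoter: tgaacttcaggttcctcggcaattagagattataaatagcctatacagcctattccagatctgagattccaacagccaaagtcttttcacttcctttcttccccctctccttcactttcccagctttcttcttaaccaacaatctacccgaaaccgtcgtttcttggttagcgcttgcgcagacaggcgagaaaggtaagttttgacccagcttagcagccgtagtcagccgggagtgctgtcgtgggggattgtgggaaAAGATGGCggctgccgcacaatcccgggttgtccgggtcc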

How the data were processed

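Complementary DNA of H1 naïve and primed hESCs (2 libraries per state) was sequenced on a Nanopore PromethION. The authors aligned the reads to GRCh38 with minimap2 and deposited, for each library, raw counts per transcript from featureCounts 2.0.0 with the Ensembl 105 annotation. Per the file headers, alignments were counted over whole transcript spans, introns included and strand ignored, and once for each overlapping transcript and each place they aligned. Such counts are of alignments, not of molecules, and intervals cover counting error only.

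Transcripts were matched by identifier to GENCODE 44 (242542 of 244825, with 1.0% of counts unmatched and left out). Each gene took the count of its transcript with the largest mean. Testing used genes that reached 10 counts in at least 2 libraries, by edgeR 4.0.16 in R 4.3.3 (TMM, quasi-likelihood, two-sided, Benjamini-Hochberg over all genes, call at an adjusted p under 0.05). Reported SEs were derived from the fold change and its test statistic, and CPM are TMM-scaled. Isoform usage was tested with edgeR's diffSpliceDGE, with dIF from counts per exonic length and a threshold of 0.1. Lengths are exonic lengths of the MANE Select or canonical transcript.

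Members and gene lists were chosen with earlier results of these data known. The genes named were the complex II subunits, families of paralogs, readthrough genes, and in the other complexes up to 3 members per direction with the largest change among those called with a mean count of at least 50 and no overlap between states. Core subunits and others that place a group beside its count were chosen after their values were seen, and so were the promoters and pseudogenes. Of other lists, genes were named in order of mean count, up to 4 a list. NRF1 was named after its value was seen, and MT-CYB and some markers of cell type were named outside this order. Of 10 naïve markers, 9 were found. Alternatives were library size, total file counts, DESeq2 1.42.0, no filter or 50 counts, the replicate block, summed counts, canonical transcripts, a log2 threshold of 1, members without overlapping genes and each library left out. Values of 1 member are not reported here, though the counts and medians include it. Replicates of a state differed by more than sampling noise, at 15.3 (naïve) and 9.04 (primed) chi-square units per degree of freedom. Sequences come from GENCODE 44 and RefSeq tables, and Wilson intervals from scipy in Python.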

Additional observations from a re-analysis of the deposited data

How the results depend on the processing

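The number of members called lower, 69, was within 1.5 times that value under DESeq2, both filters, the replicate block, summed counts, canonical transcripts and each library left out (57 to 71). It was 44 with library size without TMM, 45 with total file counts, 40 with a log2 fold change beyond 1 (0 higher, 40 in all) and 26 of 33 (27 called in all) among members whose span overlaps no other gene. The number higher, 1, was 15 with library size, 13 with total file counts, 0 with DESeq2, 2 with no filter, 3 with at least 50 counts and 0 to 3 with a library left out. With a library left out, the lone library of a state was assumed to vary like the other pair, and 59 to 72 members were called. The median log2 fold change, -0.97, was -0.33 with library size, -0.40 with total file counts, -0.85 without overlapping genes and -1.09 to -0.76 with a library left out. Without UQCRHL, NDUFC2-KCTD14 and ATP5MF-PTCD1, an alternative chosen after seeing the data, 66 were lower and 1 higher, with a median of -0.94. The replicate block gave 70 lower and 1 higher, and of all members only the call of UQCRB changed with it (-0.36, adjusted p = 0.0142). The replicate numbers were not shown to pair the libraries (correlation of deviations 0.0593). NDUFA4 turned from -0.33 to 0.31 with library size and 0.24 with total file counts, and NDUFA4L2 from -0.08 to 0.56 and 0.49. The call of NDUFA4 was also lost with at least 50 counts (-0.23) and without naïve replicate 1, primed replicate 1 or primed replicate 2 (-0.33 to -0.10). The call of ATP5F1D was also lost with summed counts (0.67, adjusted p = 0.0663), and ATP5MC2 was called at 0.44 without primed replicate 1. Without a dIF threshold, 4 isoforms were called; with dIF beyond 0.2, with identical transcripts collapsed, with the replicate block or with a library left out, 0 were. The cause of these changes was not tested, other than the shift of all genes with the scaling.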
